A study of Mus musculus with 5 samples.

Results

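The genes described are SOX9 and the transcription factors that act with it in chondrocytes, measured in condylar cartilage of the mouse jaw joint (the temporomandibular joint). They are Sox9, Sox5, Sox6, Nkx3-2, Barx1, Foxc1, Trps1, Pitx1, Arid5b and Zfp219. They were chosen by name, with earlier results of these data known, and each is represented by the array row that carries its symbol alone. Of 19938 genes with such a row, these are 10, and all 10 were measured. Trps1 had 2 rows and is represented by the row with the higher mean over the 5 arrays, and the others had 1 row.

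The series holds 5 arrays, each of total RNA from condylar cartilage and each labelled with a mouse number of its own. All mice are of the 129/Sv strain. The groups compared were mice labelled DDR-1-KO, which lack the collagen receptor tyrosine kinase DDR1 (n = 2, mice 2 and 5), and wild-type mice (n = 3, mice 3, 4 and 6). The age and sex of the mice, the way the gene was deleted and whether cartilage of several mice was pooled were given by no source used here. The array names carry 2 date stamps, whose step is not stated. Knockout 2 and wild type 3 carry the first (date 1), and knockout 5, wild type 4 and wild type 6 carry the second (date 2). The comparison asks how loss of the receptor alters gene expression in this cartilage.

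SOX9 is the transcription factor without which mesenchymal cells do not become chondrocytes. It binds DNA through an HMG box and switches on type II collagen, aggrecan and other cartilage matrix genes. SOX5 and SOX6 lack an activation domain of their own and bind beside SOX9 on the same enhancers. The other factors either work as partners of SOX9 or shape the jaw and limb skeleton in which it acts. In condylar cartilage, a secondary cartilage that grows from a periosteum-like layer, SOX9 marks the chondrocytes beneath that layer.

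RefSeq promoter windows of GRCm38.p6, from 250 bases before to 50 bases after a transcription start, were held for 7 of the 10 genes (not for Sox9, Pitx1 and Trps1). They were searched for the core letters of SOX binding motifs, ACAAT and ACAAAG, on both strands (ATTGT and CTTTGT on the other). These motifs do not overlap each other in any of the windows shown. At least 1 of these motifs was found in windows of Sox5, Sox6, Nkx3-2 and Zfp219 and in none of Arid5b, Foxc1 or Barx1. This makes 9 of 13 windows of these genes, against 42.9% of all 32851 windows in the table. Of the 9, 6 belong to Sox6 alone, so the windows do not count separate genes. By gene, 4 of 7 held a motif. Among matrix genes that SOX9 is known to activate, 4 of 21 windows held one. Over that table ACAAT was in 31.0% of windows and ACAAAG in 18.7%. The windows below are shown because they belong to the SOX partners Sox5 and Sox6, to a further gene with a motif (Nkx3-2), and to the 1 gene among the 7 whose knockout values both lay below wild type (Barx1). Capitals mark the motifs on either strand, each line reads 5′ to 3′ along the strand of the gene, and a match is a description of letters, not a shown binding site.
Sox5 (chr6:143947057-143947356, minus strand): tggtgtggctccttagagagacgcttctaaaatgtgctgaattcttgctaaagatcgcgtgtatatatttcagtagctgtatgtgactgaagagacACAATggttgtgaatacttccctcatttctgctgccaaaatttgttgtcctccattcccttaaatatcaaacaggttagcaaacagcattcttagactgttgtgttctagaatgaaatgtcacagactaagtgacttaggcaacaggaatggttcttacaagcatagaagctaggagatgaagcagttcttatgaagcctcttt
Sox6 (a start at chr7:115995037-115995336, minus strand): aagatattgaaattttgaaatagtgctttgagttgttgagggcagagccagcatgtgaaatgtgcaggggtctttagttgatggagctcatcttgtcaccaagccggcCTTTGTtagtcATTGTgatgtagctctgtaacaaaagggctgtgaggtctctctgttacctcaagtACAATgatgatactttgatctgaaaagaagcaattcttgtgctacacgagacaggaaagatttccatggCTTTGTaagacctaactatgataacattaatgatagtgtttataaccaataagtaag
Nkx3-2 (chr5:41764171-41764470, minus strand): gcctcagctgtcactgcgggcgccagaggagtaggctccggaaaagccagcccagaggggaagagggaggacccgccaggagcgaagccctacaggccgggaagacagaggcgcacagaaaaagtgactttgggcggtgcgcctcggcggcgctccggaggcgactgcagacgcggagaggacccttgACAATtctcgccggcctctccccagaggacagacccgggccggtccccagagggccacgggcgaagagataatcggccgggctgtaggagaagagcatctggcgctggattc
Barx1 (chr13:48662786-48663085, plus strand): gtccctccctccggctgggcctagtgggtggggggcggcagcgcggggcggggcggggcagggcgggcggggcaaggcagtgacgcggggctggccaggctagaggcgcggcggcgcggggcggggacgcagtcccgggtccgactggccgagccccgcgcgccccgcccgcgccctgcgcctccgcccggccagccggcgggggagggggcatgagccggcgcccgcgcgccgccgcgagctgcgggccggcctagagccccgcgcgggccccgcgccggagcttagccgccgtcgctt

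Sox5 held 1 ACAAT, 154 bases before the start, and Nkx3-2 held 1 ACAAT, 62 bases before it. The Sox6 window held 4 motifs, 2 of each kind, and was chosen from 6 windows of that gene, all of which held at least 1. The Barx1 window held none and consisted of G and C at 84.7% of its bases, against a median of 52.7% over all windows.

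Values are log2 RMA signals, in which 1 unit is a 2-fold difference, and a change is knockout minus wild type on that scale. Over all genes, pairs of wild-type arrays had correlations from 0.984 to 0.993. Each wild-type array correlated less well with knockout 5 (0.903 to 0.927) and with knockout 2 (0.814 to 0.837). The 2 knockout arrays correlated at 0.803, the lowest value of any pair. The spread of values over genes was narrower in knockout 2 (SD 0.802) and knockout 5 (SD 0.906) than in wild type (SD 0.991 to 1.02). Arrays often share an identical value for a gene: the 3 wild-type arrays held fewer than 3 distinct values in 81.7% of all genes and in 8 of these 10. The error of such a gene does not measure the spread between mice.

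Ddr1, the deleted gene, had log2 signals of 5.96 in knockout 2 and 5.80 in knockout 5, against 6.02 on each wild-type array. Both knockout values were the lower ones, yet the change of -0.14 (SE 0.058) did not pass limma's test (adjusted p = 0.377). It was -0.053 within date 1 and -0.22 within date 2, and its sign turned, to 0.029 after cyclic loess and to 0.0175 with arrays centred and scaled. The positions of its probes were not used here, so Ddr1 does not check the labels.

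Sox9 was the 1 gene of the 10 that passed the test, and it fell in knockout cartilage to 74.7% of its wild-type signal. Sox5 and Sox6, its partners, stayed without a call, with the knockout arrays on opposite sides of wild type in both. Barx1 and Pitx1, which encode homeobox factors of the jaw, were lower on both knockout arrays but did not pass. Foxc1, Trps1 and Zfp219 were each higher on 1 knockout array and identical to wild type on the other. In limma's test over all 19938 genes, 2.18% fell and 1.55% rose at adjusted p under 0.05. Of the 10 factors, 1 fell, 0 rose and 9 did not pass, and 1 of the 10 had an unadjusted p under 0.05, against 18.2% of all genes.

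**Figure D1:**
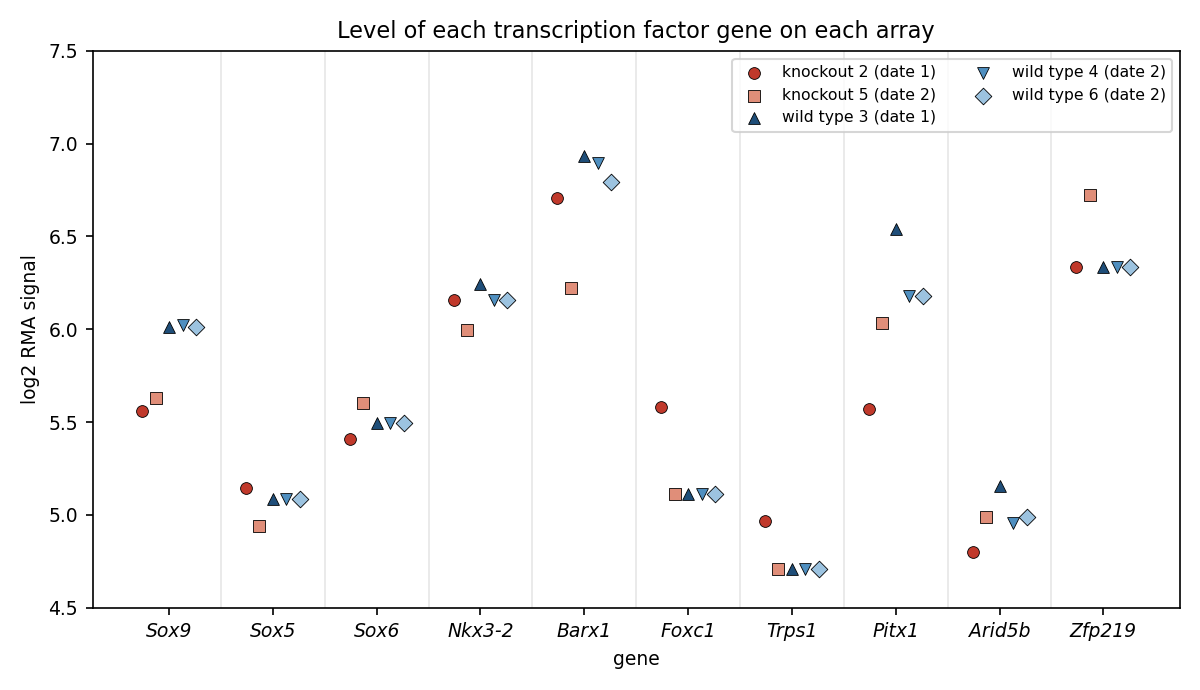
Log2 RMA signal (vertical axis) of each transcription factor gene (horizontal axis) on each of the 5 arrays, with knockout arrays in red tones and wild-type arrays in blue tones, and no averaging. Sox9 sits at 5.56 and 5.63 in knockout and near 6.01 in wild type, while in Foxc1, Trps1 and Zfp219 a single knockout array stands away from 4 arrays at the same value.

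Sox9 had log2 signals of 5.56 in knockout 2 and 5.63 in knockout 5. In wild type it had 6.01 in mouse 3, 6.02 in mouse 4 and 6.01 in mouse 6. The groups did not overlap, and the knockout arrays lay closer to each other than to any wild-type array. The change was -0.42 (SE 0.029, 95% interval -0.51 to -0.34, n = 2 against n = 3, limma's adjusted p = 0.0229). Within date 1 it was -0.45 and within date 2 it was -0.39. Wild types 3 and 6 had the same value as deposited, so the SE rests in part on identical values. The two-sided exact permutation test over the 5 arrays gave p = 0.1, the smallest that 10 splits allow. In whole tissue, fewer chondrocytes and less Sox9 RNA in each chondrocyte cannot be told apart.

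The call for Sox9 depended on the setting while its direction did not turn in any that was run. The adjusted p was 0.0603 with the date as a block, 0.118 after cyclic loess (change -0.27), 0.0969 with arrays centred and scaled (change -0.31), 0.0742 after quantile normalisation and 0.542 with array weights. It was 0.134, 0.162 and 0.189 without wild type 3, 4 or 6, and 0.000312 and 0.000178 without knockout 2 or 5, where the lone knockout array is assumed to vary like wild type.

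Sox5, which encodes an HMG-box partner of SOX9, had log2 signals of 5.15 in knockout 2 and 4.94 in knockout 5, against 5.09 on each wild-type array. Sox6, the gene of the other HMG-box partner, had 5.41 in knockout 2 and 5.60 in knockout 5, against 5.49 on each wild-type array. The knockout arrays went opposite ways in both genes, and where knockout 2 was above wild type for Sox5 it was below for Sox6. Such opposite shifts from the wild-type mean were seen in 19.5% of all genes. The change of Sox5 was -0.043 (95% interval -0.25 to 0.16, limma's adjusted p = 0.697). That of Sox6 was 0.012 (95% interval -0.18 to 0.21, limma's adjusted p = 0.963). Both intervals exclude a change as large as the -0.42 of Sox9, but the wild-type values were identical, so they reflect only the spread of the knockout arrays and the moderation. With a lone knockout array, whose spread is then taken from those identical values, both genes passed, Sox5 at -0.15 and Sox6 at 0.11 without knockout 2 (adjusted p = 2.84e-06 and 4.76e-06) and at 0.058 and -0.086 without knockout 5 (adjusted p = 1.36e-05 and 5.95e-06). Within date 1 and date 2 the change was 0.058 and -0.15 for Sox5, and -0.086 and 0.11 for Sox6. These are the genes whose promoter windows with SOX letters are printed above.

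Zfp219 and Arid5b encode factors that assist SOX9. ZFP219, a zinc finger protein that binds SOX9 and helps it activate type II collagen, had log2 signals of 6.34 in knockout 2 and 6.72 in knockout 5, against 6.34 on each wild-type array. Knockout 2 was identical to wild type and knockout 5 alone was higher. The change was 0.19 (95% interval -0.19 to 0.57, limma's adjusted p = 0.399), with 0 within date 1 and 0.39 within date 2, and it passed as a lone array without knockout 2 (0.39, adjusted p = 7.48e-07). Cyclic loess gave 0.40 (adjusted p = 0.0856), and centring and scaling the arrays gave 0.42 (adjusted p = 0.0796). Arid5b, whose product is an AT-rich DNA-binding protein that acts as a coregulator of SOX9, had 4.80 in knockout 2 and 4.99 in knockout 5. Wild-type values were 5.16 in mouse 3, 4.96 in mouse 4 and 4.99 in mouse 6, so knockout 5 lay within wild type. The change was -0.14 (95% interval -0.42 to 0.14, limma's adjusted p = 0.399), with -0.36 within date 1 and 0.017 within date 2.

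Nkx3-2, Barx1 and Pitx1 encode homeobox proteins. NKX3-2 keeps chondrocytes from maturing, and its gene had log2 signals of 6.16 in knockout 2 and 5.996 in knockout 5. Wild-type values were 6.24 in mouse 3 and 6.16 in mice 4 and 6, and knockout 2 was identical to the last 2. The change was -0.11 (95% interval -0.30 to 0.080, limma's adjusted p = 0.399), and it turned to 0.073 after cyclic loess.

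Barx1, a gene of jaw mesenchyme, molar teeth and developing joints, had log2 signals of 6.70 in knockout 2 and 6.22 in knockout 5. Wild-type values were 6.94, 6.90 and 6.79 in mice 3, 4 and 6, so both knockout arrays lay below all wild-type arrays. The change was -0.41 (SE 0.171, 95% interval -0.90 to 0.080, limma's adjusted p = 0.36). It was -0.23 within date 1 and -0.62 within date 2, and its size depended on knockout 5, with a change of -0.17 (adjusted p = 0.23) without it and -0.65 (adjusted p = 0.027) without knockout 2. It shrank to -0.18 under cyclic loess and to -0.13 when arrays were centred and scaled.

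Pitx1, which shapes the mandible and the hindlimb, had log2 signals of 5.57 in knockout 2 and 6.04 in knockout 5. Wild-type values were 6.54 in mouse 3 and 6.18 in mice 4 and 6, and both knockout arrays lay below them. The change was -0.50 (SE 0.212, 95% interval -1.11 to 0.11, limma's adjusted p = 0.373). It was -0.97 within date 1 and -0.14 within date 2, and here the size depended on knockout 2, with a change of -0.26 without it and -0.73 without knockout 5. Neither of these left-out fits passed (adjusted p = 0.587 and 0.119). The estimates for Barx1 and Pitx1 were near that of Sox9, at -0.41, -0.50 and -0.42, while the SD between the knockout arrays was 0.341 for Barx1, 0.329 for Pitx1 and 0.051 for Sox9.

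**Figure D2:**
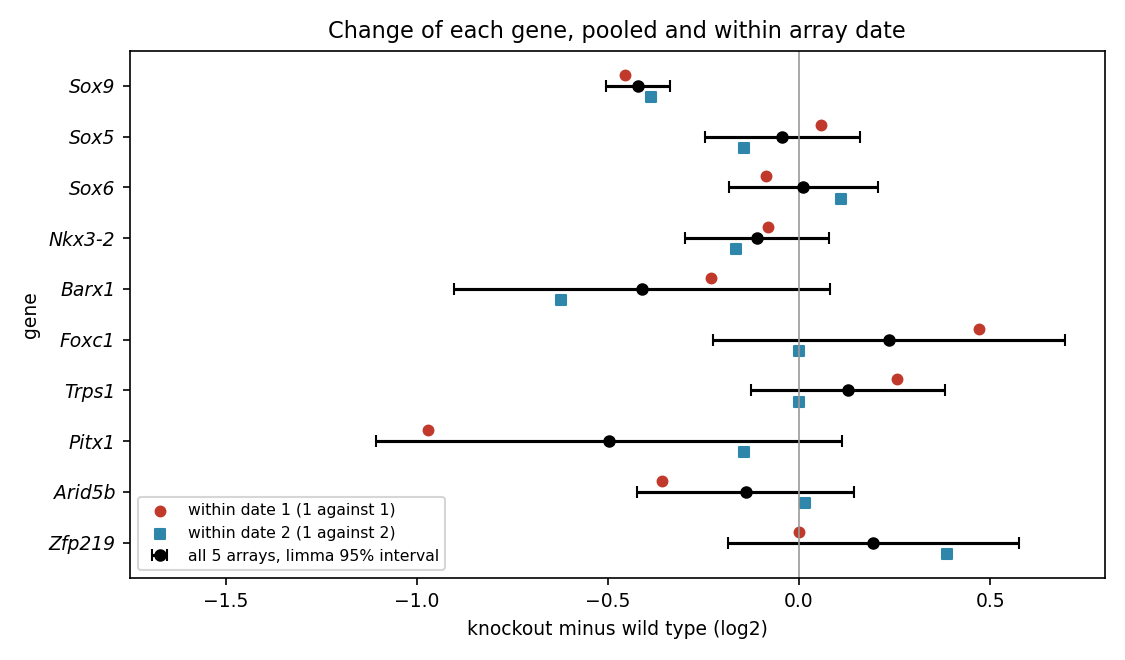
Knockout minus wild type on the log2 scale (horizontal axis) for each gene (vertical axis), with black points and bars for the fit of all 5 arrays and its 95% interval, red circles for date 1 and blue squares for date 2. Sox9 has the narrowest interval, -0.51 to -0.34, with its within-date values of -0.45 and -0.39 on the same side, while Sox5 and Sox6 have within-date values on opposite sides of 0.

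Foxc1 and Trps1 pointed the other way, through knockout 2. Foxc1, a forkhead gene needed for skull and cartilage formation, had log2 signals of 5.58 in knockout 2 and 5.11 in knockout 5, against 5.11 on each wild-type array. The change was 0.24 (95% interval -0.23 to 0.70, limma's adjusted p = 0.399), with 0.47 within date 1 and 0 within date 2. Trps1, a GATA-type zinc finger repressor of chondrocyte maturation, had 4.97 in knockout 2 and 4.71 in knockout 5, against 4.71 on each wild-type array. The change was 0.13 (95% interval -0.13 to 0.38, limma's adjusted p = 0.399), with 0.26 within date 1 and 0 within date 2. Both genes passed as a lone array without knockout 5, at 0.47 and 0.26 (adjusted p = 3.45e-07 and 7.46e-07), where the spread is that of identical wild-type values.

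The second row of Trps1 had log2 signals of 4.97 in knockout 2 and 4.84 in knockout 5, and of 4.63, 4.25 and 4.63 in wild types 3, 4 and 6. On that row the knockout arrays were both above wild type, with a change of 0.40, of which 0.33 was seen within date 1 and 0.40 within date 2. With the 2 rows averaged the change was 0.26 (limma's adjusted p = 0.309). The rows therefore had the same direction and differed in size.

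Across the 10 factors, 3 were lower on both knockout arrays than on every wild-type array and 0 were higher on both, against 18.6% and 13.0% of all genes. Among genes with a mean signal at or above the median, 29.45% were lower on both and 481 of 9969 were higher on both. In 5 of the 10, a knockout value was identical to a wild-type value, against 49.5% of all genes. Knockout 2 lay below all wild-type arrays in 5 genes and above in 3. Knockout 5 lay below in 5 genes and above in 2. The wild-type arrays held a single value in 5 of the 10, against 39.1% of all genes, and any other value lies outside it. Shares over all genes were not counted for the arrays taken singly, so these counts do not set the 10 apart. The median change of the 10 was -0.076, and -0.043 without Sox9, against -0.0083 over all genes and -0.13 over genes with a mean signal at or above the median, where 7 of the 10 lie. After cyclic loess the median of the 10 was 0.032, and with arrays centred and scaled it was 0.019, so its sign depended on the scaling.

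**Figure D3:**
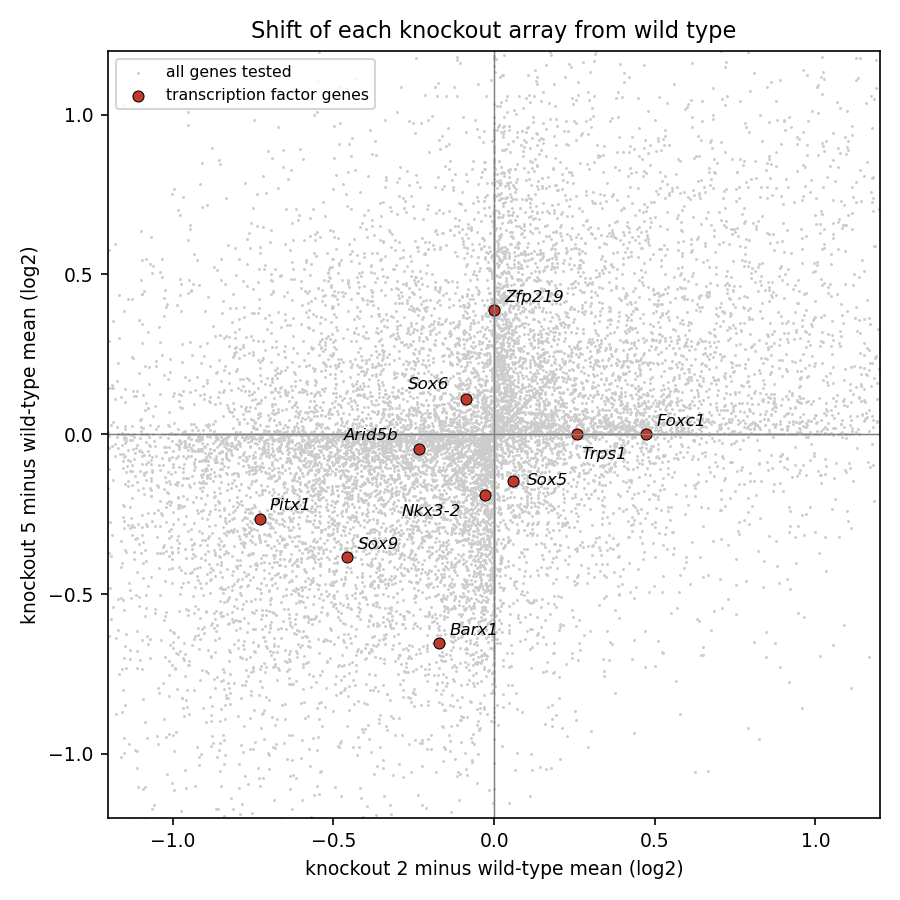
Shift of knockout 2 (horizontal axis) and knockout 5 (vertical axis) from the wild-type mean of each gene, in log2 units, with the transcription factor genes in red and all genes tested in grey (genes beyond the axes are not drawn). Sox9, Pitx1 and Barx1 lie at the lower left, Foxc1 and Trps1 on the horizontal line through 0, and Zfp219 on the vertical line through 0.

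The matrix genes that SOX9 is known to activate were lower in most cases, and most did not pass. Of 22 on the list, all 22 were measured, 3 fell, 0 rose and 19 did not pass, against 2.18% of all genes that fell. In limma 10 of the 22 (45.45%) had an unadjusted p under 0.05. That share was 18.2% of all genes and 20.47% of genes with a mean signal at or above the median. The change was below 0 in 20 of 22 (90.9%), against 51.1% of all genes and 68.95% of genes with a mean signal at or above the median. The median change was -0.28, and -0.15 after cyclic loess. The median shift from the wild-type mean was -0.38 in knockout 2 and -0.12 in knockout 5, and the median change was -0.40 within date 1 and -0.12 within date 2. Groups did not overlap, with knockout lower, in 11 of 22, against 18.6% of all genes and 29.45% of genes with a mean signal at or above the median, where 15 of the 22 lie.

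Comp, which encodes an oligomeric glycoprotein of cartilage matrix, had log2 signals of 5.78 and 5.86 in knockouts 2 and 5 and of 6.27, 6.21 and 6.21 in wild types 3, 4 and 6. Its fall of -0.41 (SE 0.038, limma's adjusted p = 0.0327) was close in size to that of Sox9, at -0.48 within date 1 and -0.35 within date 2. Col9a3, which encodes a chain of type IX collagen, had 6.44 and 6.47 in knockouts 2 and 5, and wild types 3, 4 and 6 had 7.17, 7.01 and 7.0005. Its fall was -0.61 (SE 0.067, limma's adjusted p = 0.0422), -0.73 within date 1 and -0.54 within date 2. Both falls were without a call with the date as a block (adjusted p = 0.0886 and 0.0797) and after cyclic loess, where they were -0.23 and -0.37. Without wild type 3, 4 or 6, Comp had adjusted p = 0.145, 0.185 and 0.205 and Col9a3 had 0.106, 0.198 and 0.205, and Col9a3 had 0.0542 without knockout 2.

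Xylt1, the enzyme that starts the sugar chains of proteoglycans, had log2 signals of 5.76 and 5.74 in knockouts 2 and 5 and of 5.89, 5.90 and 5.89 in wild types 3, 4 and 6. Its fall of -0.15 (SE 0.017, limma's adjusted p = 0.0459) was small and turned to 0.0053 after cyclic loess, and its adjusted p was 0.217 with arrays centred on the median and 0.105 with the date as a block. Without wild type 3, 4 or 6 it was 0.193, 0.265 and 0.275. Col27a1, Col2a1 and Col9a2, which encode fibrillar and fibril-associated collagens of cartilage, had changes of -0.51, -0.26 and -0.42 (limma's adjusted p = 0.064, 0.069 and 0.105). All 3, which were named for their low p, had knockout values below every wild-type value. Col2a1, which had 7.27 on each wild-type array, turned to 0.0016 after cyclic loess and to 0.095 with arrays centred and scaled.

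Genes that act with or upstream of SOX9 held no call in limma with the brightest row of each gene. Of 30 on the list 28 were measured, 0 passed and 3 of the 28 had an unadjusted p under 0.05, against 18.2% of all genes, with a median change of -0.025 that turned to 0.010 after cyclic loess. Ppargc1a, a coactivator that binds SOX9, had log2 signals of 4.98 and 5.33 in knockouts 2 and 5 against 4.68 to 4.69 in wild type (change 0.47, adjusted p = 0.165). Ppargc1a had 2 rows, and with these averaged it passed (change 0.49, limma's adjusted p = 0.012). Fgfr3, the growth-restraining FGF receptor of chondrocytes, had 6.52 and 5.91 against 6.85 to 6.95 (change -0.69, adjusted p = 0.224). Bmp2, a ligand that induces Sox9, had a change of 0.087 (adjusted p = 0.215). The knockout arrays lay outside the wild-type range in all 3 genes, which were named for their low p. Over the 28 genes, groups did not overlap in 1 with knockout lower and in 2 with knockout higher. The shares over all genes were 18.6% and 13.0%.

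The other Sox genes held no call either. All 17 on the list were measured, 0 passed in limma and 4 had an unadjusted p under 0.05, against 18.2% of all genes. The change was below 0 in 15 of 17, with a median of -0.10 that was -0.031 after cyclic loess. Of the 17 genes, 15 have a mean signal at or above the median, and over all such genes 68.95% were below 0 with a median change of -0.13. Sox4, a factor of progenitor cells, had log2 signals of 5.32 and 5.36 in knockouts 2 and 5 against 6.20, 5.99 and 5.89 in wild types 3, 4 and 6 (change -0.69, adjusted p = 0.0716). Sox8, the close relative of Sox9, had 5.64 and 5.87 against 6.09, 6.17 and 6.09 (change -0.36, adjusted p = 0.148). Sox1, known from neural progenitors, had a change of -0.91 (adjusted p = 0.0753). The knockout values of these 3 genes, which were named for their low p, lay below all wild-type values. Over the list, groups did not overlap, with knockout lower, in 7 of 17. That share was 18.6% of all genes and 29.45% of genes with a mean signal at or above the median. Detection above background was not called, so a signal does not show that the gene is expressed in the tissue.

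**Figure D4:**
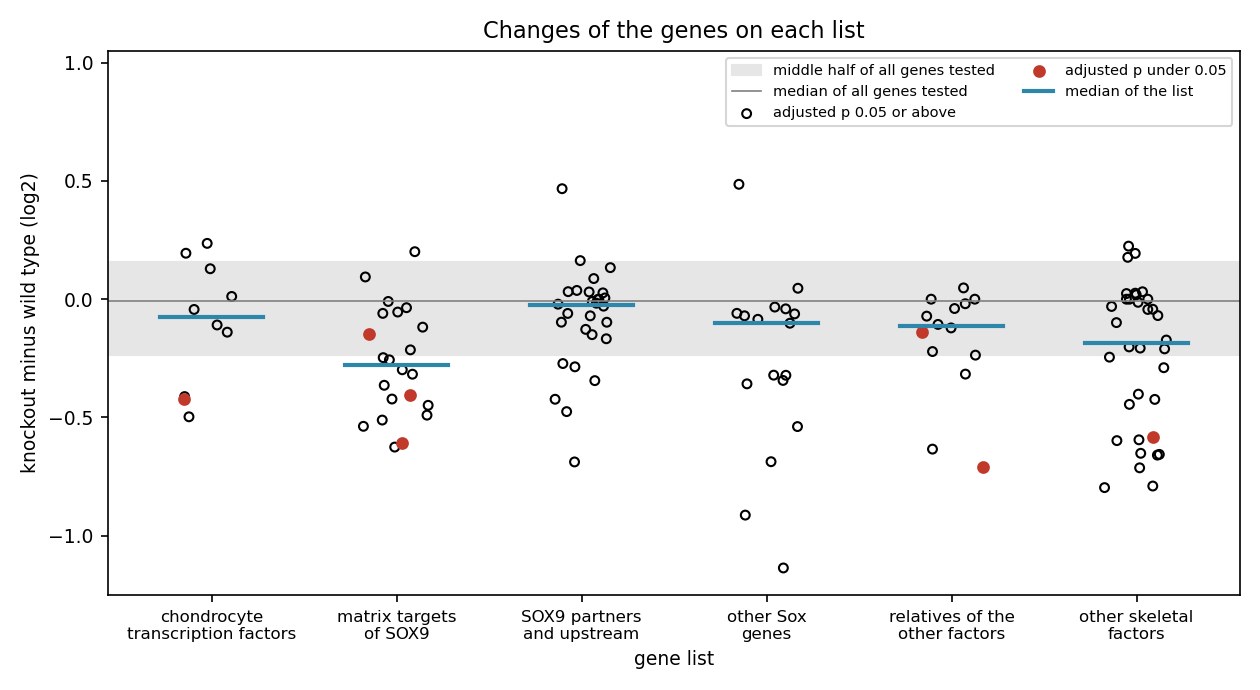
Knockout minus wild type on the log2 scale (vertical axis) for every measured gene of 6 gene lists (horizontal axis), with filled red points for limma adjusted p under 0.05, open points for the rest, a blue line for the median of each list and a grey band for the middle 50% of all genes. The transcription factors have a median of -0.076 and the SOX9 matrix targets a median of -0.28.

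Most relatives of the other factors and most further skeletal transcription factors did not pass in limma. Of 14 measured relatives out of 16, 2 fell and 0 rose, against 2.18% and 1.55% of all genes. The median change of the relatives was -0.11 and turned to 0.0040 after cyclic loess. The change was below 0 in 11 of the 14 and in 24 of 34 skeletal factors, against 51.1% of all genes and 68.95% of genes with a mean signal at or above the median, where 11 and 26 of them lie. Gata4, which shares its zinc finger type with Trps1, had log2 signals of 5.74 and 5.98 in knockouts 2 and 5 against 6.58, 6.57 and 6.57 in wild types 3, 4 and 6 (change -0.71, SE 0.08, limma's adjusted p = 0.0422). Foxf1, a forkhead relative of Foxc1, had 5.54 on both knockout arrays against 5.68 on each wild-type array (change -0.14, SE 0.015, limma's adjusted p = 0.0422). Its change was -0.011 after cyclic loess, and its adjusted p was 0.219 with arrays centred on the median and 0.103 with its 2 rows averaged. Foxc2, the closest relative of Foxc1, had a change of -0.22 (adjusted p = 0.393), while Foxc1 itself had 0.24.

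Of 34 measured skeletal factors out of 36, 1 fell and 0 rose, against 2.18% and 1.55% of all genes. In limma 10 of the 34 had an unadjusted p under 0.05, against 18.2% of all genes and 20.47% of genes with a mean signal at or above the median. The median change of the 34 was -0.19, against -0.13 over genes with a mean signal at or above the median. It was -0.093 after cyclic loess, -0.082 within date 1 and -0.074 within date 2. Gli1, a target and effector of Hedgehog signalling, had log2 signals of 5.85 and 5.83 in knockouts 2 and 5 against 6.41, 6.46 and 6.41 in wild types 3, 4 and 6 (change -0.58, SE 0.025, limma's adjusted p = 0.015). Pax1, a factor of the axial and shoulder skeleton, had a change of -0.29 (adjusted p = 0.0505), the AP-1 factor Fosl2 had -0.71 (adjusted p = 0.0625), and Hand2, a patterning factor of the mandible, had -0.66 (adjusted p = 0.0736). With the date as a block or without any 1 wild-type array, none of Gata4, Foxf1 and Gli1 passed, the adjusted p being 0.0534 to 0.104 with the block and 0.106 to 0.273 without a wild-type array.

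Markers of the tissue and its neighbours were read beside the fall of Sox9. All 10 chondrocyte markers are also among the 22 matrix genes above, so they do not add separate genes. They were all measured and below 0 in change, against 51.1% of all genes. That share was 68.95% among genes with a mean signal at or above the median, where 7 of the 10 lie. The median shift of the 10 markers was -0.49 in knockout 2 and -0.0026 in knockout 5. A knockout value was identical to a wild-type value in 5 of the 10, against 49.5% of all genes. Groups did not overlap, with knockout lower, in 3 of the 10, against 29.45% of genes with a mean signal at or above the median. Of the 10 markers, 0 passed in limma and 2 had an unadjusted p under 0.05, against 18.2% of all genes. Their summed log2 level ran from 57.8 to 58.0 in wild type and was 53.2 on the knockout 2 array and 57.5 on the knockout 5 array. The sum of 10 muscle markers was 56.4 and 56.8 in knockouts 2 and 5 against 58.2 to 59.6, and that of 6 endothelial markers 30.1 and 29.7 against 30.4 to 31.1. In limma 1 muscle and 2 endothelial markers had an unadjusted p under 0.05, against 18.2% of all genes. Groups did not overlap, with knockout lower, in 2 muscle and 2 endothelial markers, against 18.6% of all genes. The change was above 0 in 2 muscle and 2 endothelial markers. Sums lay above wild type for 8 myeloid markers, at 41.9 on both knockout arrays against 40.6 to 41.0. Of these 8, 0 had an unadjusted p under 0.05 in limma, against 18.2% of all genes. On both knockout arrays 1 of the 8 was above every wild-type array, against 13.0% of all genes. The median shift of the 8 was 0.065 in knockout 2 and 0 in knockout 5. The sum also lay above wild type for 3 of 6 Schwann cell markers, at 15.4 and 15.9 against 14.76 to 14.95. Of these 3, 1 rose in limma (Cdh19, named after its values were seen), against 1.55% of all genes.

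For 9 fibrous layer and tendon markers the sums were 49.1 and 52.0 against 50.8 to 53.2, and for 7 osteoclast markers 33.6 and 36.4 against 35.7 to 36.3. For 7 of 8 osteoblast markers they were 36.5 and 37.9 against 37.3, and for 3 of 6 erythroid markers 16.4 and 15.7 against 16.2. For 5 of 6 adipocyte markers they were 25.2 and 26.1 against 25.4 to 25.99. Of these 5, 1 fell in limma (Cidec, named after its values were seen), against 2.18% of all genes. On all arrays these markers gave a signal, as every probe does, so none can be called absent. The part of these tissues in the fall of Sox9 was not tested.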

How the data were processed

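Log2 signals were made and deposited by the authors with Affymetrix Expression Console and RMA, per the submitters' processing notes, from biotin-labelled total RNA on the Affymetrix mouse gene 1.0 ST array. RMA corrects background, quantile-normalises probes and summarises them by median polish, which can return the same value for several arrays. No software version is stated, and the genome build is not given in the sources used here. Signals ran from 0.413 to 13.5, with array medians of 4.97 to 5.03, and the number of arrays limits the precision.

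Of 35556 rows, 21789 had 1 gene symbol, 1621 several and 12146 none in the platform annotation. The brightest row of each gene by mean over the 5 arrays was kept, which left 19938 genes, of which 19856 matched the GRCm38.p6 gene table. The log2 values were fitted with limma 3.58.1 in R 4.3.3 (lmFit and eBayes, knockout minus wild type, two-sided). Benjamini-Hochberg adjustment ran over all genes, with a threshold of 0.05. The fit was tested on simulated data with normal noise of equal spread in both groups and no identical values. Many genes here hold identical values, so the simulation does not check the fit for such genes. No replicate number is shared, so nothing was paired. The labels name a mouse per array and do not state pooling, so p-values measure at most the spread between these samples. Where wild-type values are identical, the p-values rest in part on those ties and on limma's moderation.

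The members and the lists were chosen with earlier results of these data known, so lists have counts and medians and no set test. Named genes are the 10 factors, Ddr1, from each list those past the threshold and 3 more of lowest p, and the 5 genes nearest to Sox9. Cdh19 and Cidec, outside that rule, were named after their values were seen. Alternatives covered the date, scaling, row choice, a filter on dim genes, the variance model, array weights and each array left out.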

Additional observations from a re-analysis of the deposited data

How the results depend on the processing

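Over 10 factors, 1 passed the threshold, and 0 passed with the date as a block, under cyclic loess, with centred and scaled arrays, under quantile normalisation and with array weights. Without 1 array the count ranged from 0 to 5. It was 5 without knockout 2 and 5 without knockout 5, where the spread of the lone array is taken from wild types that often hold identical values. Of all genes 744 passed, and 0 passed under those same 5 settings, with 3829, 4155, 3795, 4109 and 1917 at an unadjusted p under 0.05 in limma. It was 446 among genes with a mean signal at or above the median. Without 1 array the count of genes ranged from 0 to 9999. At least 2312 had an unadjusted p under 0.05 in each of these fits. The array weights did not converge. The share of rises among calls was 41.5%, 39.1% with arrays centred on the median, 54.8% with all rows tested and 12.3% among genes with a mean signal at or above the median.

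Signs turned for small changes. Sox5 had 0.0062 with array weights and ranged from -0.15 without knockout 2 to 0.058 without knockout 5. Sox6 had -0.0033 with arrays centred on the median, -0.036 with array weights, and ranged from -0.086 without knockout 5 to 0.11 without knockout 2. Nkx3-2 had 0.073 under cyclic loess and 0.076 with centred and scaled arrays. Outside the 10 factors, cyclic loess gave 0.029 for Ddr1, 0.0053 for Xylt1, 0.0016 for Col2a1 and 0.019 for Pitx3, and arrays centred and scaled gave 0.0175 for Ddr1, 0.095 for Col2a1, -0.0066 for Bmp2 and 0.087 for Pitx3. Quantile normalisation gave -0.042 for Bmp2, and averaged rows gave 0.0074 for Itpripl2. The cause was not tested. No paired analysis was possible because the groups share no replicate number.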

Other observations

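The 5 genes whose profile over the 5 arrays lay nearest to that of Sox9, by root mean square distance between profiles centred on the mean of each gene, were Twnk (0.0056), Ttc1 (0.0096), Itpripl2 (0.011), Ccdc182 (0.013) and Tab2 (0.016), in log2 units. Twnk encodes the helicase of mitochondrial DNA replication and Tab2 an adaptor of the kinase TAK1. Twnk had log2 signals of 4.56 and 4.65 in knockouts 2 and 5 and of 5.03 on each wild-type array. Tab2 had 4.79 and 4.82 against 5.24. Comp, the nearest of the named matrix targets, lay at 0.025. With 5 arrays in 2 groups a profile consists mainly of the difference between the groups. Itpripl2 had a second row, and its change went from -0.41 to 0.0074 with the rows averaged.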
